A study of Homo sapiens with 16 samples.

Results

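A list of non-HLA genes of chromosome band 6p21 was described in clones of a human melanoma line transfected with catalase. The list held 60 genes, taken in order from BRD2, inside the MHC class II region, to CD2AP, just beyond the band on the side of the centromere. The genes share a place in the genome, but the list is not complete: 123 other measured genes from RING1 to CD2AP are not on it. Where several array rows carried the same gene, the row was chosen by its measured mean over all 16 arrays. The list itself was put together with results of G10 known, so its counts describe these genes and are no test of them. Of the 60 genes, 57 had a row with their symbol alone, out of 18417 genes with such a row on the array. MAPK14, NUDT3 and FKBP5 had none and have no value here. ENPP4 and RCAN2 lay below the level of unexpressed genes in every group, which leaves 55 members with a usable level.

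This stretch of the short arm follows the MHC, the gene-dense region that carries the genes of antigen presentation. Its non-HLA genes have unrelated functions. They include general transcription factors and chromatin proteins, enzymes of RNA processing and translation, ubiquitin ligases, Golgi and membrane proteins, and NFYA, a subunit of the factor NF-Y, which binds the CCAAT box of MHC class II promoters.

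Total RNA was measured in A375 cells, an amelanotic human melanoma line, in PCDNA3 cells, which are A375 cells carrying the empty pcDNA3 vector, and in the clones A7 and G10, which carry the vector with human catalase cDNA. PCDNA3, A7 and G10 were selected and kept in geneticin, which untransfected A375 cells were not. A7 and G10 are each 1 clone from clonal dilution, so a change in a clone cannot be told apart from a difference that the founding cell had. Each group had 4 arrays, labelled as biological replicates. Control, the reference for both clones, was the midpoint between the mean of A375 and the mean of PCDNA3.

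The values are log2 intensities of 33297 rows of the Affymetrix Human Gene 1.0 ST array, and all fold changes below are differences on that log2 scale. Array medians lay between 5.85 and 5.97. The level of unexpressed genes was set at 5.17, the 95th percentile of the 379 rows of olfactory receptor genes. Catalase itself had a mean of 8.65 in control, 9.02 in A7 and 8.27 in G10, so on these arrays G10 showed no excess of its transcript over control (log2 change -0.38 ± 0.13, SE, adjusted p = 0.0526). The change in A7 was 0.37 ± 0.13 (SE, adjusted p = 0.124), not called either, and its replicate 2 (8.92) lay below replicate 2 of A375 (9.03). The row does not tell the transfected cDNA from the cell's own gene. Set directly against A7, G10 was lower in this row (-0.75 ± 0.15, SE, adjusted p = 0.0022 in limma). Neither clone was called higher than control in the catalase row, and both clones are called by their labels. The 9 measured melanoma markers had means over all arrays from 5.88 for TYR to 10.4 for S100B, with 9.47 for SOX10 and 10.3 for MITF. In G10, PMEL was called higher (2.46) and CSPG4 (-1.39) and MCAM (-0.30) lower, and in A7 MLANA (1.29) and TYR (1.81) were called higher. Of 9 measured markers of B cells and myeloid cells, PTPRC, MS4A1, CD86 and LYZ had means below the level of unexpressed genes in all groups, although LYZ was called higher in A7 (1.41). CD79A, CD79B, CD14, ITGAX and SPI1 lay above that level, with means from 5.38 to 6.15. The part of these marker changes in the results was not tested.

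The G10 arrays stood in pairs. Over all rows, replicates 1 and 2 correlated at r = 0.994 and replicates 3 and 4 at r = 0.992, whereas the correlations across the pairs ran from 0.984 to 0.987. The A7 arrays showed the same order, with 0.994 and 0.995 within the pairs and 0.987 to 0.993 across. In A375 and PCDNA3 all correlations lay between 0.990 and 0.993, without such pairs. No label names a batch, and what sets the pairs apart was not tested. Results for G10 are therefore also given with either pair left out, a choice made after the data were seen.

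In G10, 32 of the 57 members were higher than control and 3 were lower at an adjusted p under 0.05 in limma. Over all rows, 9.92% were called higher and 7.9% lower, and over genes above the level of unexpressed genes the shares were 16.6% and 13.3%. The members had a median log2 change of 0.31, against -0.035 for all rows, and their changes had an SD of 0.41. In 47 of the 57 members the change was above 0. In RNA from whole cultures, a change in the number of cells with a transcript and a change in its amount per cell cannot be told apart. The rises were small: the 32 called ones ran from 0.22 to 0.88 on the log2 scale, and none reached 1. In 23 members every G10 array lay above every control array, which held for 5.96% of all rows, and in 3 every G10 array lay below, which held for 4.35%. Of the 32 members called higher, 23 stayed so when any 1 of the 16 arrays was left out, and so did all 3 called lower. The other 9 lost their call without at least 1 array. They were RING1, SRF, RNF8, BYSL, MOCS1, STK38, PPP2R5D, XPO5 and MTCH1, the last without any of 12 arrays.

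**Figure D1:**
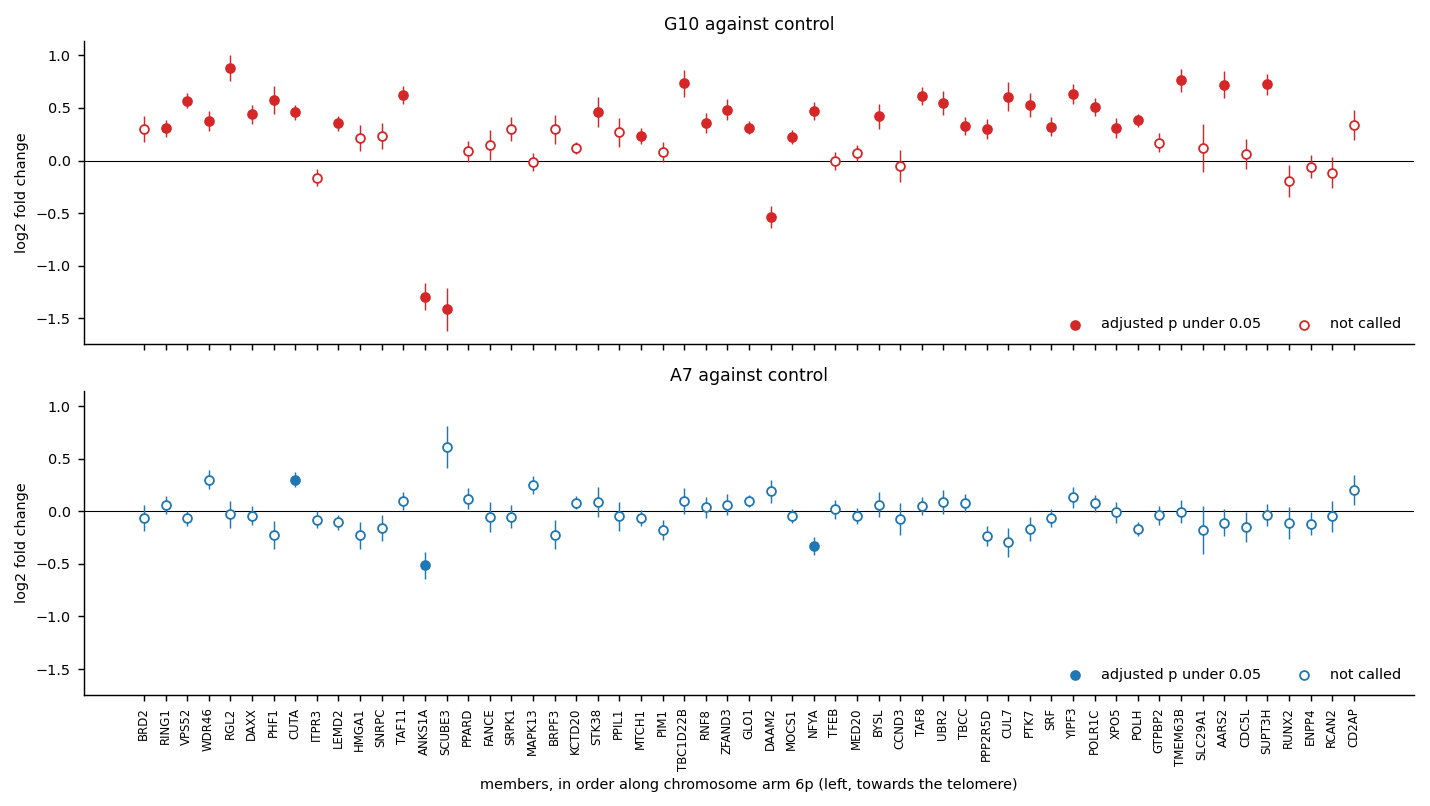
Log2 fold change with its SE (vertical axis) of the 57 measured members in their order along 6p (horizontal axis), for G10 above and A7 below, each against control. Filled points passed an adjusted p of 0.05. In G10 the 32 members called higher lie above 0, and ANKS1A, SCUBE3 and DAAM2 lie below, while in A7 only CUTA, ANKS1A and NFYA are called.

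The largest rise was that of RGL2, an exchange factor for Ral GTPases that acts downstream of Ras. The 4 A375 arrays read 7.03, 7.10, 6.76 and 6.92, and the 4 PCDNA3 arrays 6.58, 6.87, 6.88 and 6.93. The A7 arrays read 6.88, 6.65, 6.91 and 6.99, and the G10 arrays 8.10, 8.01, 7.38 and 7.57. All G10 arrays lay above all others, with replicates 1 and 2 the highest. The log2 change in G10 was 0.88 ± 0.13 (SE, adjusted p = 0.000139), a 1.84-fold rise.

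TMEM63B, a membrane channel gated by osmotic and mechanical stress, read 6.79, 6.90, 6.99 and 7.10 in A375 and 7.23, 6.75, 6.68 and 7.14 in PCDNA3. It read 6.99, 7.16, 6.79 and 6.83 in A7 and 7.80, 7.86, 7.58 and 7.60 in G10, where its log2 change was 0.76 ± 0.11 (SE, adjusted p = 0.000169). Again no G10 array overlapped with any other group. TBC1D22B belongs to the family of proteins that switch off Rab GTPases in vesicle traffic. Its A375 arrays read 6.54, 6.27, 6.40 and 6.40, its PCDNA3 arrays 6.58, 6.27, 6.66 and 6.59, its A7 arrays 6.76, 6.92, 6.26 and 6.30 and its G10 arrays 6.95, 7.29, 7.33 and 7.22. The log2 change was 0.73 ± 0.13 (SE, adjusted p = 0.000574), and the lowest G10 array lay just above the highest A7 array.

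SUPT3H, a subunit of the SAGA histone acetyltransferase complex, had the lowest level among these risers. It read 5.64, 5.81, 5.68 and 5.72 in A375 and 5.79, 5.66, 5.83 and 5.83 in PCDNA3. In A7 it read 5.86, 5.67, 5.69 and 5.62, and in G10 6.38, 6.11, 6.82 and 6.55, a log2 change of 0.72 ± 0.10 (SE, adjusted p = 0.000123). The G10 arrays varied more (SD 0.30) than those of the other groups, yet did not overlap with them. AARS2, which charges mitochondrial tRNA with alanine, read 7.29, 7.72, 7.53 and 7.60 in A375 and 6.98, 7.47, 7.68 and 7.64 in PCDNA3. Its A7 arrays read 7.49, 7.16, 7.42 and 7.45 and its G10 arrays 8.43, 8.27, 8.02 and 8.11, with a log2 change of 0.72 ± 0.13 (SE, adjusted p = 0.000821). YIPF3 is a Golgi membrane protein. It read 9.42, 9.51, 9.35 and 9.32 in A375, 9.36, 9.36, 9.25 and 9.46 in PCDNA3, 9.62, 9.36, 9.55 and 9.52 in A7 and 10.28, 10.18, 9.80 and 9.79 in G10. Its log2 change was 0.63 ± 0.10 (SE, adjusted p = 0.000206), and replicates 3 and 4 of G10 lay nearest to the other groups.

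The 3 members that fell in G10 differed in size: ANKS1A and SCUBE3 fell by more than 1 log2 unit, further than any member rose, and DAAM2 by less. SCUBE3, a secreted protein with EGF-like repeats, read 9.04, 8.78, 8.72 and 8.92 in A375 and 8.78, 9.02, 9.09 and 8.61 in PCDNA3. It read 9.56, 9.68, 9.28 and 9.41 in A7 and 7.96, 8.08, 6.91 and 6.87 in G10. The change in G10 was -1.41 ± 0.20 (SE, adjusted p = 0.000125), and the G10 pairs were 1.13 log2 units apart. ANKS1A, an adaptor that binds Eph receptors, read 9.29, 8.89, 9.46 and 9.28 in A375, 9.46, 9.96, 9.73 and 9.35 in PCDNA3, 9.0, 8.93, 8.80 and 8.92 in A7 and 8.03, 7.91, 8.41 and 8.20 in G10. Its change was -1.29 ± 0.13 (SE, adjusted p = 3.28e-06). DAAM2, a formin of WNT signalling, read 7.49, 7.77, 7.55 and 7.67 in A375, 7.51, 7.24, 7.20 and 7.43 in PCDNA3, 7.69, 8.03, 7.48 and 7.48 in A7 and 6.81, 6.99, 7.07 and 6.90 in G10, a change of -0.54 ± 0.11 (SE, adjusted p = 0.00169). In all 3, every G10 array lay below every other array. ANKS1A and SCUBE3 are next to each other in the order of members.

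**Figure D2:**
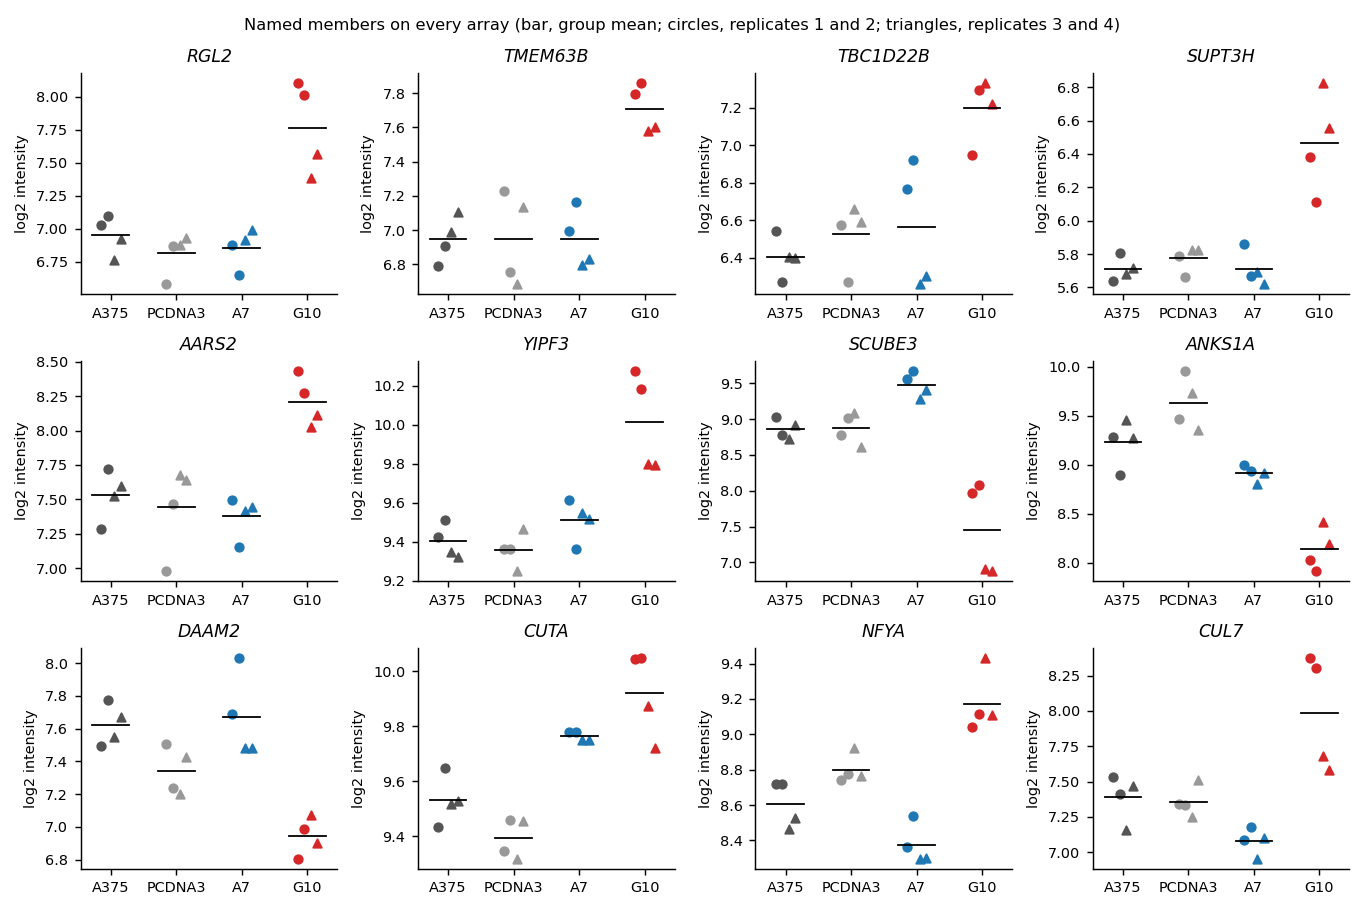
Log2 intensity (vertical axes) of the 12 named members on each of the 16 arrays, by group, with the group mean as a bar. In the 6 members that rose most, all G10 arrays lie above the others, and in SCUBE3, ANKS1A and DAAM2 all lie below. In RGL2, SCUBE3, CUL7 and YIPF3 the G10 circles and triangles stand apart.

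The risers came from every functional group. Among 16 members of transcription and chromatin 9 rose and none fell. The called ones were the TFIID subunits TAF11 (0.62) and TAF8 (0.61), the Polycomb-associated PHF1 (0.57) and RING1 (0.31), POLR1C (0.51), a shared subunit of RNA polymerases I and III, NFYA (0.47), the histone chaperone DAXX (0.44), SRF (0.32) and SUPT3H. The bromodomain protein BRD2 had a change of 0.30 and the high-mobility-group protein HMGA1 one of 0.21, neither called. PPARD (0.09), MED20 (0.08) and TFEB (-0.0014) stayed within 0.1 log2 units of control, and RUNX2 had -0.19.

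Of 9 members of RNA processing, ribosome assembly and translation 4 rose. These were AARS2, the nucleolar proteins BYSL (0.42) and WDR46 (0.38), and XPO5 (0.31), the export receptor of precursor miRNAs. The splicing factors SNRPC (0.23), PPIL1 (0.27) and CDC5L (0.065) were not called, nor was SRPK1 (0.30), a kinase of splicing factors. Of 7 members of the cell cycle, DNA repair and ubiquitin ligases 4 rose: CUL7 (0.61), UBR2 (0.55), the translesion polymerase POLH (0.38) and RNF8 (0.36). Cyclin D3 (CCND3) had -0.053, PIM1 0.086 and FANCE 0.14.

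Of 6 kinases, phosphatases and signal adaptors RGL2, STK38 (0.46) and PPP2R5D (0.30) rose and ANKS1A fell. MAPK13 and RCAN2 lay below the level of unexpressed genes in G10 and control. Of 7 members of vesicle traffic, cytoskeleton and nuclear envelope, VPS52 (0.57), the inner nuclear membrane protein LEMD2 (0.35) and the tubulin cofactor TBCC (0.33) rose with TBC1D22B and YIPF3, and DAAM2 fell. Of 7 channels, receptors and secreted proteins TMEM63B, the receptor PTK7 (0.53) and MTCH1 (0.23) rose and SCUBE3 fell. Of the remaining 5, ZFAND3 (0.48), CUTA (0.46), GLO1 (0.31), which detoxifies methylglyoxal, and MOCS1 (0.22) rose, and KCTD20 had 0.12.

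With all G10 arrays in the fit, the called rises were not evenly laid along the arm. In the order of members, 11 in a row from TAF8 to POLH were called higher, and 7 in a row from RING1 to CUTA. The 6 from PPARD to KCTD20 that were measured were not called, nor were the 4 from RUNX2 to CD2AP, at the end of the list. These runs depended on the G10 arrays used. With replicates 3 and 4 alone, RING1 in the shorter run and UBR2, PPP2R5D, CUL7, PTK7 and XPO5 in the longer run were not called. FANCE (0.49), SRPK1 (0.57) and BRPF3 (0.64) were then called higher. With replicates 1 and 2 alone, WDR46 and PHF1 in the shorter run and TBCC, SRF and XPO5 in the longer run were not called. By 4 runs of 15 listed genes, 9 of 14 measured members rose from BRD2 to ANKS1A, 4 of 13 from SCUBE3 to RNF8, 11 of 15 from ZFAND3 to PTK7 and 8 of 15 from SRF to CD2AP. The medians of these runs were 0.36, 0.23, 0.33 and 0.32 on the log2 scale, and their ranges overlapped.

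The pairs of G10 arrays did not give the same members. With replicates 1 and 2 alone, 23 members were called higher and 6 lower, with a median log2 change of 0.23. With replicates 3 and 4 alone, 31 were higher and 3 lower, with a median of 0.42. Of these, 16 members were called higher with each of the pairs and 3, ANKS1A, SCUBE3 and DAAM2, lower with each. The share of all rows called in each of these fits is not given here. The counts are therefore not read as a difference between the pairs that is particular to the members. The sign of the change was the same in 45 of the 57 members. SLC29A1, a nucleoside transporter, read 7.77 and 7.75 in replicates 1 and 2 of G10 and 9.38 and 8.87 in replicates 3 and 4. Its A375 arrays read 8.21, 7.94, 8.25 and 8.22, and its PCDNA3 arrays 8.45, 8.48, 8.51 and 8.47, so that the pairs lay on opposite sides of control. CDC5L, a core spliceosome protein, read 8.95 and 9.09 against 9.74 and 9.86 in the G10 pairs, around a control mean of 9.35. Over the 4 arrays their changes were 0.12 ± 0.23 and 0.065 ± 0.14 (SE), neither called. These were the members called in opposite directions by the pairs, and they were named after their values were seen.

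**Figure D3:**
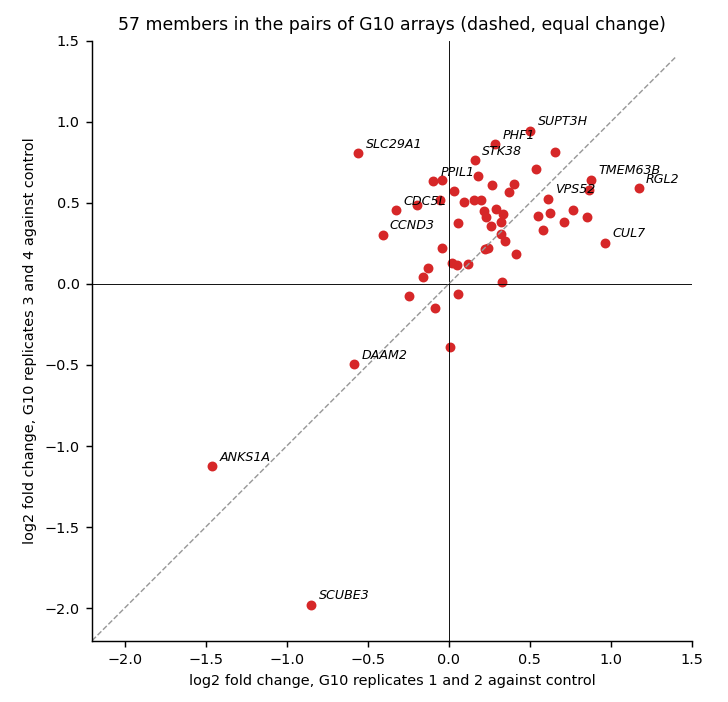
Log2 fold change against control of each of the 57 members with G10 replicates 1 and 2 alone (horizontal axis) and with replicates 3 and 4 alone (vertical axis). Points on the dashed line would have equal changes. SLC29A1, CDC5L and CCND3 lie left of 0 and above 0. With replicates 3 and 4, 31 members are called higher, and with replicates 1 and 2, 23. The shares of all rows called in these fits are not given.

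In A7 the list barely moved. CUTA rose, ANKS1A and NFYA fell, and the other 54 were not called, beside 3.46% of all rows called higher and 2.23% lower. The median log2 change of the members was -0.041, and 32 of the 57 lay within 0.1 log2 units of control, against 8 in G10. An unadjusted p under 0.05 was reached by 9 members in A7, beside 17.1% of all rows, and by 39 in G10, beside 28.2%. CUTA, a small trimeric protein tied to copper tolerance in bacteria, read 9.43, 9.65, 9.52 and 9.53 in A375, 9.34, 9.46, 9.32 and 9.45 in PCDNA3, 9.78, 9.78, 9.75 and 9.75 in A7 and 10.04, 10.05, 9.87 and 9.72 in G10. It was above every control array in both clones, by 0.30 ± 0.073 in A7 (SE, adjusted p = 0.0218) and 0.46 ± 0.073 in G10 (SE, adjusted p = 0.000309). ANKS1A was lower in A7, with a change of -0.52 ± 0.13 (SE, adjusted p = 0.0237), where the highest A7 arrays overlapped with replicate 2 of A375.

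NFYA moved in opposite directions in the clones. It read 8.72, 8.72, 8.47 and 8.53 in A375, 8.74, 8.77, 8.92 and 8.77 in PCDNA3, 8.36, 8.54, 8.30 and 8.30 in A7 and 9.04, 9.12, 9.43 and 9.11 in G10. The change was -0.33 ± 0.086 in A7 (SE, adjusted p = 0.0337) and 0.47 ± 0.086 in G10 (SE, adjusted p = 0.00106). The A7 calls were fragile: CUTA and ANKS1A lost theirs without any 1 of the A7 arrays, NFYA without any 1 of 7 arrays. All 3 lost it with A375 alone as the control and with either pair of A7 arrays left out. SCUBE3 read above every control array in A7, with a change of 0.61 ± 0.20 (SE) and an adjusted p of 0.10.

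Set directly against A7, G10 had 25 members higher and 3 lower, beside 7.83% and 7.38% of all rows, with a median log2 difference of 0.32. Both comparisons of G10 rest on the same G10 arrays. The largest differences were those of RGL2 (0.91 ± 0.15, SE, adjusted p = 0.000413), CUL7 (0.90 ± 0.16, adjusted p = 0.000743), AARS2 (0.83 ± 0.15, adjusted p = 0.00097) and NFYA (0.80 ± 0.10, adjusted p = 3.91e-05). CUL7, the scaffold of a cullin-RING ubiquitin ligase, read 7.54, 7.41, 7.16 and 7.47 in A375, 7.34, 7.33, 7.25 and 7.51 in PCDNA3, 7.09, 7.18, 6.95 and 7.10 in A7 and 8.38, 8.30, 7.68 and 7.58 in G10. All G10 arrays lay above the others, and 3 of the A7 arrays below all control arrays. SCUBE3, ANKS1A and DAAM2 were lower in G10 than in A7, with differences of -2.02 ± 0.23, -0.78 ± 0.15 and -0.73 ± 0.12 (SE).

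Between the control lines no member was called, beside 0.045% of all rows higher and 0.0781% lower in PCDNA3 than in A375. At the unadjusted level, 10 members had a p under 0.05, beside 12.6% of all rows, and the median log2 difference was 0.027. The widest differences were those of POLR1C (0.47) and GTPBP2 (-0.34). POLR1C had means of 9.01 in A375, 9.49 in PCDNA3 and 9.76 in G10. Its highest PCDNA3 array (9.66) lay above its lowest G10 array (9.63), so its rise in G10 was smaller against PCDNA3 than against A375.

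The MHC class II chains, which present peptides to CD4 T cells and lie directly before the members, rose far more in G10. Of the 15 listed genes 9 had a value, and 8 of these were higher in G10 than control, with none lower, beside 9.92% and 7.9% of all rows. HLA-DRB5 rose by 2.67 ± 0.13 (SE, adjusted p = 1.3e-09), from group means of 5.89 in A375, 6.48 in PCDNA3 and 5.84 in A7 to 8.85, on probes that near-identical HLA-DRB genes may share. HLA-DPB1 rose by 1.91 ± 0.082 (SE), with means of 8.92, 9.16, 8.85 and 10.95 in A375, PCDNA3, A7 and G10. HLA-DPA1 rose by 1.88 ± 0.12 (SE), with means of 10.38, 10.73, 10.33 and 12.44 in the same order. The peptide loading chains HLA-DMB and HLA-DMA, at 9.90 and 9.48 in G10 and 8.25 and 8.28 in control, rose by 1.65 ± 0.091 and 1.19 ± 0.11 (SE). HLA-DOA, a modulator of that loading, rose by 1.53 ± 0.13 from 6.18 to 7.71, and HLA-DQA1 by 0.86 ± 0.12 (SE) from 5.30 to 6.16. HLA-DOB lay below the level of unexpressed genes in control, so its rise was at least 0.34, with a measured difference of 1.47. The HLA-DQB1 row lay below that level in all groups, at group means from 3.23 to 3.33. Array rows that carry several symbols were not used, so this row need not hold all the signal of HLA-DQB1. The paper lists HLA-DQB1 among the genes upregulated in G10.

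The median log2 change of the 9 measured chains, HLA-DQB1 included, was 1.53, which is 1.22 log2 units, or 2.32-fold, above the members' median of 0.31. By measured differences, the members and the chains called higher met only at RGL2. It was the 1 member whose change exceeded the 0.86 of HLA-DQA1, the smallest measured rise among these chains. HLA-DOB is placed there by its measured 1.47, and its bound of 0.34 lay within the range of the members. Only 7 chains lay above the level of unexpressed genes, and their median was 1.65. In A7 none of the 9 chains was called, and their median was -0.16. Averaged over its genes, each array gives a level relative to the mean over 16 arrays. For the members this level ran from -0.11 to 0.016 in the control arrays, from -0.12 to -0.042 in A7 and from 0.13 to 0.30 in G10. For the chains it ran from -0.48 to -0.24 in control, from -0.55 to -0.33 in A7 and from 1.00 to 1.23 in G10. On the log2 scale the members' level in G10 was 0.26 above control, and G10 replicate 3 was highest for both groups of genes.

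**Figure D4:**
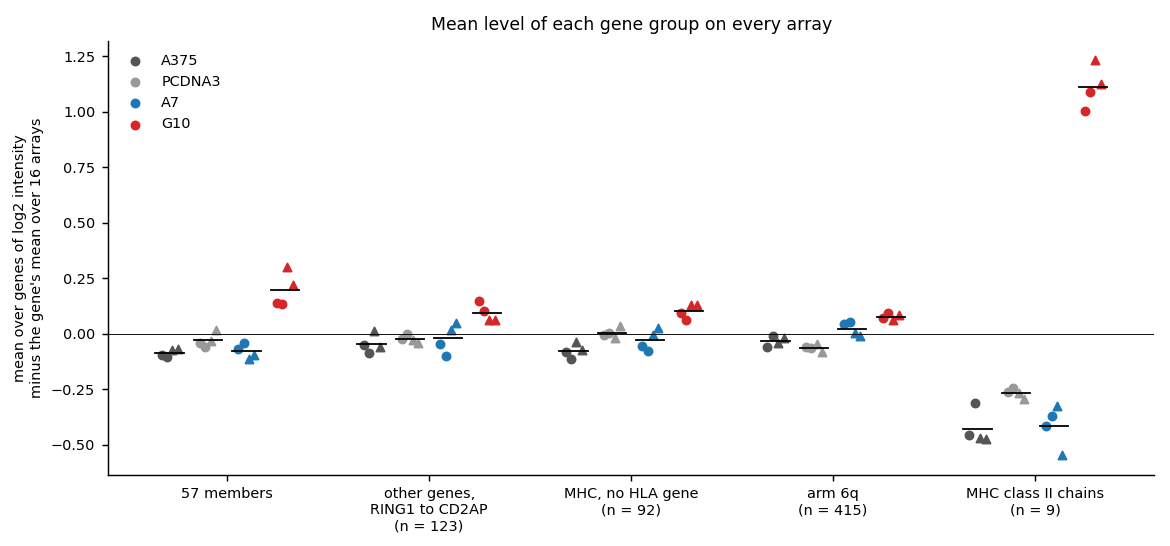
Mean level of each gene group on each array (vertical axis, log2 intensity minus the gene's mean over the 16 arrays) for the members, other genes of the interval, non-HLA genes of the MHC, arm 6q and the MHC class II chains, with group means as bars. Circles are replicates 1 and 2 and triangles replicates 3 and 4. The G10 arrays lie between 0.13 and 0.30 for the members and between 1.00 and 1.23 for the chains.

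CIITA, the coactivator that class II promoters need, read 5.68, 5.69, 5.82 and 5.9 in A375, 6.03, 5.9, 6.18 and 6.0 in PCDNA3, 5.88, 5.78, 5.74 and 5.89 in A7 and 6.74, 6.27, 6.56 and 6.61 in G10. Every G10 array lay above the others, with a log2 change of 0.64 ± 0.087 (SE, adjusted p = 7.88e-05). Of 8 measured genes for class II regulators, NFYA included, 5 were higher in G10 and CREB1 was lower (-0.30). The others higher were RFXAP (0.66), NFYB (0.45) and RFX5 (0.33). All 8 lay above the level of unexpressed genes, and of all genes above it 16.6% were called higher in G10 and 13.3% lower. The gene of the invariant chain, CD74, had no row with its symbol alone. Of the 9 B cell and myeloid markers 1, ITGAX (0.55), was higher in G10 and none was lower, with a median of -0.028, and PTPRC stood at 2.78 in G10.

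The genes between RING1 and CD2AP that the list leaves out had a lower median change. Of 123 such genes with a value, 31 were higher in G10 and 5 lower, with a median log2 change of 0.023. Of the 84 above the level of unexpressed genes, 28 were higher and 4 lower, with a median of 0.091. That is 33.3% called higher, beside 58.2% of the members above that level, and the difference was not tested. These sets differ in level: the median of the gene means over all arrays was 6.57 in the 84 genes and 8.30 in the members. The part of this difference in level in the shares called was not tested. The largest rises among them were those of TRERF1, a transcription regulator (at least 0.94, measured 1.20), the mitochondrial carrier SLC25A27 (at least 0.47, measured 1.13), the cell cycle inhibitor CDKN1A (0.99), the pseudogene ADCY10P1 (at least 0.72, measured 0.93) and OARD1 (0.89). The falls were those of the potassium channel KCNK5 (-0.87), MDGA1 (-0.36), PACSIN1 (-0.33) and CPNE5 (-0.32), while LINC03040 was called lower but lay below the level of unexpressed genes. When each of the 16 arrays was left out in turn, MDGA1 lost its call in 9 fits, CPNE5 in 11, LINC03040 in 2 and ADCY10P1 in 1.

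Other stretches of chromosome 6 also had medians above 0 in G10. Above the level of unexpressed genes, 26 of 76 non-HLA genes of the MHC were called higher and 2 lower, with a median of 0.15, and on the long arm 100 of 277 were higher and 16 lower, with a median of 0.17. Between CD2AP and the centromere, 4 of 22 were higher and 3 lower, with a median of 0.073. From the tip of the short arm to the MHC, 48 of 144 were higher and 10 lower, with a median of 0.12. The members stood at 32 of 55, with a median of 0.31. A running median over 31 genes reached its highest value of the chromosome, 0.46, at SLC39A7, beside RING1, in a window that held 7 MHC class II chains and 8 members. With HLA genes left out, a choice made after the data were seen, the highest value was 0.44, at CNPY3, which lies among the members. With or without them the median went down to -0.014 within the stretch from the first to the last member. In A7 the running median stayed between -0.080 and 0.062 in that stretch. By chromosome, the median of genes above that level ran from -0.19 on chromosome 11 to 0.26 on chromosome 21, and chromosome 6 had 0.17.

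**Figure D5:**
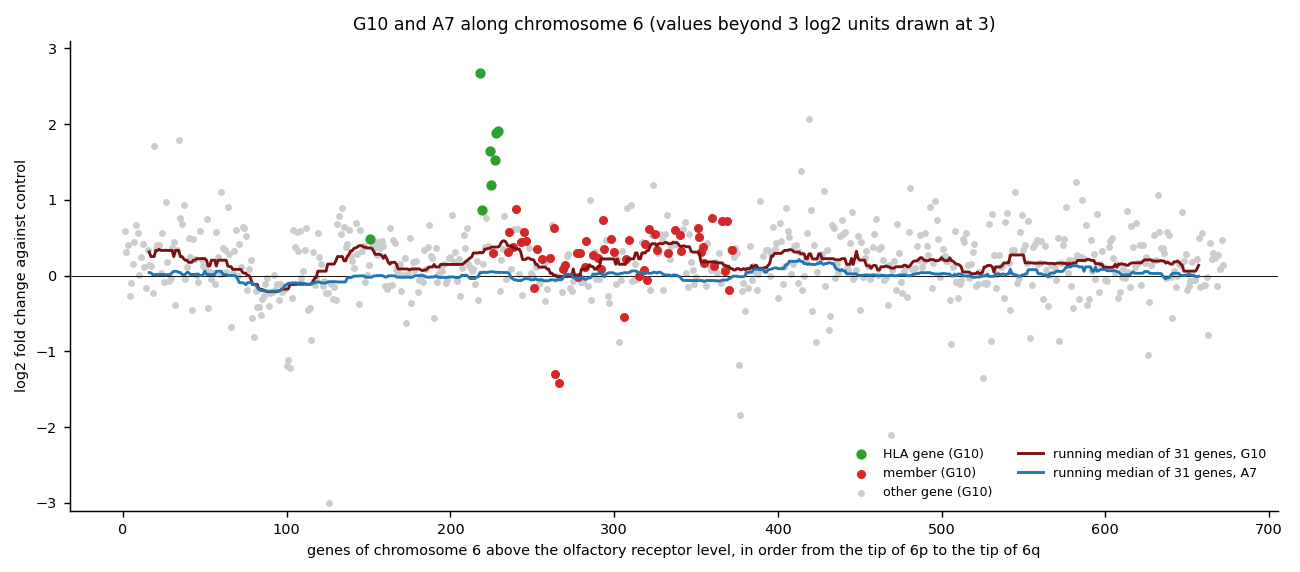
Log2 fold change of G10 against control (vertical axis) of the 672 genes of chromosome 6 above the level of unexpressed genes, in gene order (horizontal axis), with running medians over 31 genes for G10 and A7. Red points are members and green points HLA genes. The G10 line peaks at 0.46 beside RING1, where the window holds 7 MHC class II chains, falls to near 0 within the members and rises again, and the A7 line stays between -0.080 and 0.062 there.

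Some members start close to a neighbour on the opposite strand. In 8 pairs the promoter windows, 250 bases before to 50 after the start in RefSeq (GRCh38.p14), overlapped, and in 4 of them both genes were called higher in G10. Of all members 56.1% were called higher, and of the other genes from RING1 to CD2AP 25.2%. Whether paired genes moved together more often than other genes was not tested. POLR1C and YIPF3, whose windows share 262 bases, rose by 0.51 and 0.63, and POLH and XPO5, which share 246, by 0.38 and 0.31. NFYA (0.47) rose with OARD1 (0.89), and WDR46 (0.38) with PFDN6 (0.61). TMEM63B and TBC1D22B rose while their partners MRPL14 (0.075) and TMEM217 (0.023) were not called. The remaining pairs, KCTD20 with PXT1 and GTPBP2 with MAD2L1BP, held no called gene.

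The CCAAT box, the letters NF-Y binds, was searched on both strands (CCAAT or ATTGG) in the RefSeq windows. It was present in 11 of 13 windows of MHC class II chains (84.62%), in 23 of 77 windows of 52 members (29.87%) and in 34.61% of all 35116 windows. The E-box CACGTG, which reads the same on both strands, was in 7.792% of member windows and 7.256% of all. The core TGTGGT (or ACCACA) of RUNX sites was in 10.39% and 13.07%. No motif contains another, although the ends of CACGTG and TGTGGT can overlap. The windows below show the promoters of HLA-DRB5 and HLA-DPB1, which hold the box, and of HLA-DPA1, which rose by 1.88 and holds none in either of its windows. Beside them stand NFYA, whose own window ends on the box, and RGL2 and POLR1C, which rose and hold none. Capitals mark CCAAT or ATTGG, and each runs 5' to 3' on the gene's strand. They are HLA-DRB5 (chr6:32530238-32530537, minus strand), HLA-DPB1 (chr6:33075740-33076039, plus), HLA-DPA1 (chr6:33073600-33073899, minus), NFYA (chr6:41072724-41073023, plus), RGL2 (chr6:33298893-33299192, minus) and POLR1C (chr6:43516839-43517138, plus), all in RefSeq's GRCh38.p14.
HLA-DRB5: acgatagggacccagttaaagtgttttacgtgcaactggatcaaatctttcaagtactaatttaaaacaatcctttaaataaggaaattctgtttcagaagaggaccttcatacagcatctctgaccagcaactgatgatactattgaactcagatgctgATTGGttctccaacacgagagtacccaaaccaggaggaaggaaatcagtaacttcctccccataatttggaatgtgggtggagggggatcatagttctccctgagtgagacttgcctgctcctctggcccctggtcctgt
HLA-DPB1: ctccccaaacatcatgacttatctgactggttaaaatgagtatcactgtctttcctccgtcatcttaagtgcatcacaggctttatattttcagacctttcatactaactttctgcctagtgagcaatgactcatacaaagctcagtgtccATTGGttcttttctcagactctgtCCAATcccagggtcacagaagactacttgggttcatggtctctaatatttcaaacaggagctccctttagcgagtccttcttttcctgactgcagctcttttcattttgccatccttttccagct
HLA-DPA1: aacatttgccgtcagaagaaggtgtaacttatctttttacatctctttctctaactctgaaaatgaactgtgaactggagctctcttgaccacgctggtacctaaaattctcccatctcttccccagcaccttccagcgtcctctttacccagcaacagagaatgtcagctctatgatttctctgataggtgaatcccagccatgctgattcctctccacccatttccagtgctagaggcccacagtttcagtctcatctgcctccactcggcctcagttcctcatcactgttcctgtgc
NFYA: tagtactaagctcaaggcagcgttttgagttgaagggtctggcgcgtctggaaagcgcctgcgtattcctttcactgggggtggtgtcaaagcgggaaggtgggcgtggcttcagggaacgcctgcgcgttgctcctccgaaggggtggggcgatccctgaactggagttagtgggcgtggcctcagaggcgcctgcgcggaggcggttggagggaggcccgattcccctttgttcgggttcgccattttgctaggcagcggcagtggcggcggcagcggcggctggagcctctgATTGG
RGL2: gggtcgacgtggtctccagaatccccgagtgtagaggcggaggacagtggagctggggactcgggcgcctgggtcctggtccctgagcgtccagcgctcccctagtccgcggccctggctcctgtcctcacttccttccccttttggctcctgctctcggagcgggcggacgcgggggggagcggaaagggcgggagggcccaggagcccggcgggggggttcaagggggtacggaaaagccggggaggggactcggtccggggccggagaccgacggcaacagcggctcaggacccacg
POLR1C: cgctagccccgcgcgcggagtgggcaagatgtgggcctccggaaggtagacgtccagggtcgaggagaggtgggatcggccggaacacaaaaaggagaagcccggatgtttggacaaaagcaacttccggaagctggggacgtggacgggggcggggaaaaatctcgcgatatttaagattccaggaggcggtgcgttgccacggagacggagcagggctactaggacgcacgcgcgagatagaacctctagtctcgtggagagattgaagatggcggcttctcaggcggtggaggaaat

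Counted by gene, 12 of the 26 members called higher in G10 that had a window held the box (46.15%), NFYA among them, beside 20 of 52 members (38.46%) and 39.72% of all 27305 genes. By window the members called higher stood at 36.11%. A match is a string of letters and no evidence of binding, and its absence from the windows of HLA-DPA1, RGL2 and POLR1C says only that these letters are not there.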

How the data were processed

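Total RNA of 16 cultures, 4 each of A375, PCDNA3, A7 and G10, was hybridised to Affymetrix Human Gene 1.0 ST arrays. The authors deposited log2 values made by RMA, which corrects the background, normalises the arrays by quantiles and summarises the probes of each row. The version of RMA was not given in the sources used here. The arrays carry no read depth, and their number limits the precision. The labels call the samples biological replicates, and p-values weigh each change against the spread between these samples, pooled over all groups. The fit took the arrays of a group as independent, although those of G10 and A7 stood in pairs. The median SD of the members was 0.12 in A375, 0.13 in PCDNA3, 0.12 in A7 and 0.18 in G10. The SEs and p-values of G10 may therefore be too small, which was not tested.

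Genes were named through the platform annotation, in which 19460 rows had 1 symbol, 1754 several and 12083 none. Of several rows of a gene the one with the highest mean over the 16 arrays was used, and 50 members had 1 row and 7 several, with the same calls. limma 3.58.1 in R 4.3.3 fitted 1 mean per group over all 33297 rows with empirical Bayes variances, and Benjamini-Hochberg adjustment ran over all rows. Control was the midpoint of the means of A375 and PCDNA3. A gene is called at an adjusted p under 0.05, and "rose" and "fell" are used of called genes. Where a group lay below the level of unexpressed genes, a change is given as a bound from that level. Summaries and plots used Python 3.11.15, pandas 2.3.3 and matplotlib 3.10.9. The fit was also run on simulated arrays, drawn independently and without pairs of arrays. That run cannot show how the pairs seen in G10 and A7 bear on the calls. Gene order and promoter windows are those of RefSeq GRCh38.p14.

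The members, the functional groups and the other gene lists were chosen with earlier results of these data known. Named with all arrays were up to 6 called members with the largest rise and fall in G10 against control, and up to 4 each in A7 against control and in G10 against A7. Of other genes in the interval, up to 5 risers and 5 fallers were named, and group means are given for the MHC class II chains. Alternatives were other controls, arrays, filters, scalings, variance models, array weights, rows, a replicate block, stricter limits, each array left out, and, added after seeing the data, pairs of arrays left out and HLA genes left out of a running median.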

Additional observations from a re-analysis of the deposited data

Results flagged for a closer look

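G10 and A7 differed directly from each other in 25 members that were higher and 3 that were lower in G10. The log2 difference of G10 over A7 was 0.91 in RGL2, 0.90 in CUL7, 0.83 in AARS2 and 0.80 in NFYA, and it was -2.02 in SCUBE3, -0.78 in ANKS1A and -0.73 in DAAM2, each with an adjusted p under 0.05 in limma.

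Of 60 groups of 4 arrays examined for a value far from the other 3, 2 held one, and chance gives about 1 in 20. In A375, replicate 2 had a mean level of the MHC class II chains of -0.31, above its other arrays. In PCDNA3, replicate 3 had an NFYA value of 8.92, also above its other arrays.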

How the results depend on the processing

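Of 811 values of named genes under the alternatives, 740 kept their direction and side of the threshold, 71 kept only the direction and 0 turned. The shares of all rows called under the alternatives are not given here. The counts of called members in this section therefore show how the calls depend on the setting and are not read as a result about the members. For the members in G10 against control, the median was 0.37 with A375 alone as control and 0.28 to 0.37 without any 1 array. It was 0.42 without G10 replicates 1 and 2 and 0.23 without replicates 3 and 4, where 6 members were lower. No member rose by a log2 change of at least 1 (0), and 12 were higher at an adjusted p under 0.001. Against A7, the median was 0.26 with array weights, 0.27 to 0.41 without any 1 array, 0.41 without G10 replicates 1 and 2 and 0.23 without replicates 3 and 4, where 5 members were lower. At a change of at least 1, 0 were higher and 1 was lower, and 9 were higher at an adjusted p under 0.001.

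In A7 against control, where 1 member was higher and 2 lower, 2 were higher with only the arrays compared or only expressed rows and 3 with array weights. With A375 alone as control 0 were lower, and with arrays centred on their medians 1 was lower. Leaving out 1 array gave 0 to 2 higher and 0 to 2 lower. Without A7 replicates 1 and 2 or without 3 and 4, and under either stricter limit, 0 were higher and 0 lower, and the median was 0.020 without replicates 3 and 4. In PCDNA3 against A375, 1 member was higher among expressed rows, with limma-trend and with array weights, and 0 to 1 without any 1 array.

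For the MHC class II chains in G10, the median was 1.62 with either control line alone, 1.63 with the mean over rows, 1.70 without G10 replicates 1 and 2 and 1.38 without 3 and 4. Against A7 it was 1.74, 1.48 and, without A7 replicates 3 and 4, 1.48, and 1.52 to 1.67 without any 1 array. In A7 the median was -0.046 with A375 alone as control and 0.0075 without A7 replicates 3 and 4, and 1 chain was lower with PCDNA3 alone as control or without A7 replicates 1 and 2.

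The replicate numbers do not pair the samples: the correlation of deviations of same-numbered arrays ran from -0.16 to 0.23, and 3 of 24 pairs exceeded 0.1. With the replicate block, 30 members were higher and 3 lower in G10 against control, 24 and 3 against A7, and 1 and 1 in A7, where NFYA lost its call. The causes of these shifts were not tested.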
